A study of Mus musculus with 474 samples.

Results

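Genes of the spindle, the kinetochore and cytokinesis were followed in single daughters of mouse haematopoietic stem cells (HSCs). The set was given as a list of 45 gene symbols, and its members are the rows of the count tables that carry those symbols, 45 of 55450 genes. They fall into 7 roles: kinetochore and centromere (9 genes), kinesin motors (9), spindle-associated proteins (7), central spindle and cytokinesis (6), chromosomal passenger complex (3), chromosome structure (5), and cyclins with regulators of the anaphase-promoting complex (6). The list names genes by role and sets no limit on a measured value, but it was drawn up with earlier results of these data known. Of the 45, 43 had a count in at least 1 cell. Kif18b and Prc1 were listed at 0 in every cell, as was Bub3, a checkpoint gene that dividing cells use, so their zeros are not read as absent transcripts and no further value is given for them.

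The cells were daughters of wild-type HSCs. Male C57BL/6JRj mice, 12 to 19 weeks old, were the source of the bone marrow. HSCs divided for the first time in vitro under time-lapse imaging, and single daughters were taken up with a micromanipulator for Smart-seq2, which reads full-length transcripts of 1 cell per well. Each cell carries a label from the authors, high or low, for whether it inherited more or fewer lysosomes than its sister. The labels do not say how it was set, and they name no mutant, drug-treated or uncultured group.

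Cells divide in mitosis once their DNA has been copied. Kinetochores, built on centromeres, attach chromosomes to spindle microtubules, kinesins and other spindle proteins arrange those microtubules, and the central spindle and contractile ring then part the daughters. The genes for this machinery are repressed in resting cells and early in the cycle and are switched on late in DNA replication and before mitosis, by complexes that bind promoter elements named the CHR and the CCAAT box. The anaphase-promoting complex, steered by Cdc20, Ube2c and Fbxo5, then marks many of the proteins for destruction as mitosis ends. Adult HSCs divide rarely in the marrow and enter the cycle when placed in culture.

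All cells passed the filters on depth, with 76735 to 2444858 counts on genes per cell and a median of 846198. They came from 9 numbered experiments, 5 in sequencing run 4 and 4 in run 5, and 85.7% of them had their sister sequenced too, in 11 to 38 divisions per experiment (67 divisions in run 5, the others in run 4). The other 68 cells, 39 high and 29 low, had no sequenced sister. Of 8 HSC markers, Mecom was counted in 100% of cells and Hlf in 99.8%, Slamf1 in 28.7%, and Hoxb5 was listed at 0. Markers of other cell types, 6 for each, were counted in a median of 0.316% of cells for lymphoid, 1.58% for macrophage and stroma, 3.69% for myeloid, 16.6% for erythroid and 56.2% for megakaryocyte markers. Single markers reached 94.1% (Tfrc, an iron uptake gene of the erythroid list), 93.7% (Pecam1, macrophage and stroma), 74.1% (Prtn3, myeloid) and 69.6% (Pf4, megakaryocyte).

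Promoters of the members were read from RefSeq on build GRCm38.p6, from 250 bases before to 50 after each annotated start. The table held 38 of the 45 members, and Spc24, Kif20a, Tpx2, Dlgap5, Shcbp1, Incenp and Ccna2 had no entry. A CHR (TTTGAA or TTCGAA, on either strand) was present in 32 of these 38 members, 84.2%, against 21.7% of 27025 genes with a promoter of the same length. A CCAAT box (CCAAT, on either strand) was present in 27 of 38, 71.1%, against 41.1% of all genes, and both motifs together in 25 of 38, 65.8%, against 8.61%. An E2F site (TTTCGCGC or TTTGGCGC, on either strand) was present only in Kif15 among the 38 members, against 0.929% of all genes. The motifs can share bases where they abut, and such a match describes the letters only. Before the start alone, 16 members held a CHR (42.1%, against 19.6% of all genes), and in the other 16 it lay within the 50 bases after the start. The stretches below run up to the start of the gene in both RefSeq and GENCODE, 5′ to 3′ along the gene, with CHR and CCAAT letters in capitals. Top2a, Ckap2l, Cdc20 and Kif11 are shown because both motifs stand there side by side, Ccnb2 and Hmmr because 3 CCAAT boxes fall in each stretch shown, and Nuf2 because it held neither motif and yet had the highest sister resemblance of the members.

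Top2a, chr11:99024190-99024309, minus strand: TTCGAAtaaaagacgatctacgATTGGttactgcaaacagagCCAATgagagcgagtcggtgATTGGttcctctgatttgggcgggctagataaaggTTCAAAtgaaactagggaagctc
Ckap2l, chr2:129297213-129297332, minus strand: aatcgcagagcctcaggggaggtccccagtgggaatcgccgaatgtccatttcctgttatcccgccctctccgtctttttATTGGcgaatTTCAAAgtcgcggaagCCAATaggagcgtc
Cdc20, chr4:118437353-118437472, minus strand: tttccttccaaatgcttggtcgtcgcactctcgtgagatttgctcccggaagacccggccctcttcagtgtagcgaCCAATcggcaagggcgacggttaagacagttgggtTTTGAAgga
Kif11, chr19:37376262-37376381, plus strand: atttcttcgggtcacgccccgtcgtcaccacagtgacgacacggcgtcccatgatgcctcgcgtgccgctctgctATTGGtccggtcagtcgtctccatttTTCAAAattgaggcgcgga
Ccnb2, chr9:70421555-70421674, minus strand: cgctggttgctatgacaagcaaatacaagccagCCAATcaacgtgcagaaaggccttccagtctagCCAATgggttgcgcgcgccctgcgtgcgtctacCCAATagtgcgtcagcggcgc
Hmmr, chr11:40733438-40733557, minus strand: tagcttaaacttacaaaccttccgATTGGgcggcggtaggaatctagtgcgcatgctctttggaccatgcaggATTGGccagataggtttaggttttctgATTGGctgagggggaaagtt
Nuf2, chr1:169531465-169531584, minus strand: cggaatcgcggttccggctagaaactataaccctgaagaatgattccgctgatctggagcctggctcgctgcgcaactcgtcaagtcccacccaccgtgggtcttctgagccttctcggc

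In the stretch of Top2a, 3 CCAAT boxes lie between 2 CHRs, and in Ckap2l, Cdc20 and Kif11 a CCAAT box stands upstream of a CHR close to the start. Nuf2, a subunit of the NDC80 complex, held no copy of either motif in its window.

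Most cells either held nearly the whole set or little of it. Of the 43 measured members, a cell had a count for between 2 and 43, with a median of 38. All 43 were counted in 37.3% of cells, at least 36 in 53.6%, and 15 or fewer in 21.1% (100 cells), and every cell had at least 1 member. These limits of 36 and 15 were chosen after the values were seen. Of the cells between them, 76 had 16 to 25 members and 44 had 26 to 35. After every cell was thinned to 100000 counts, 48.2% of cells (1 shallower cell left out) had at least 36 members and 34.5% had 15 or fewer, so the upper share moved less with depth than the lower.

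**Figure D1:**
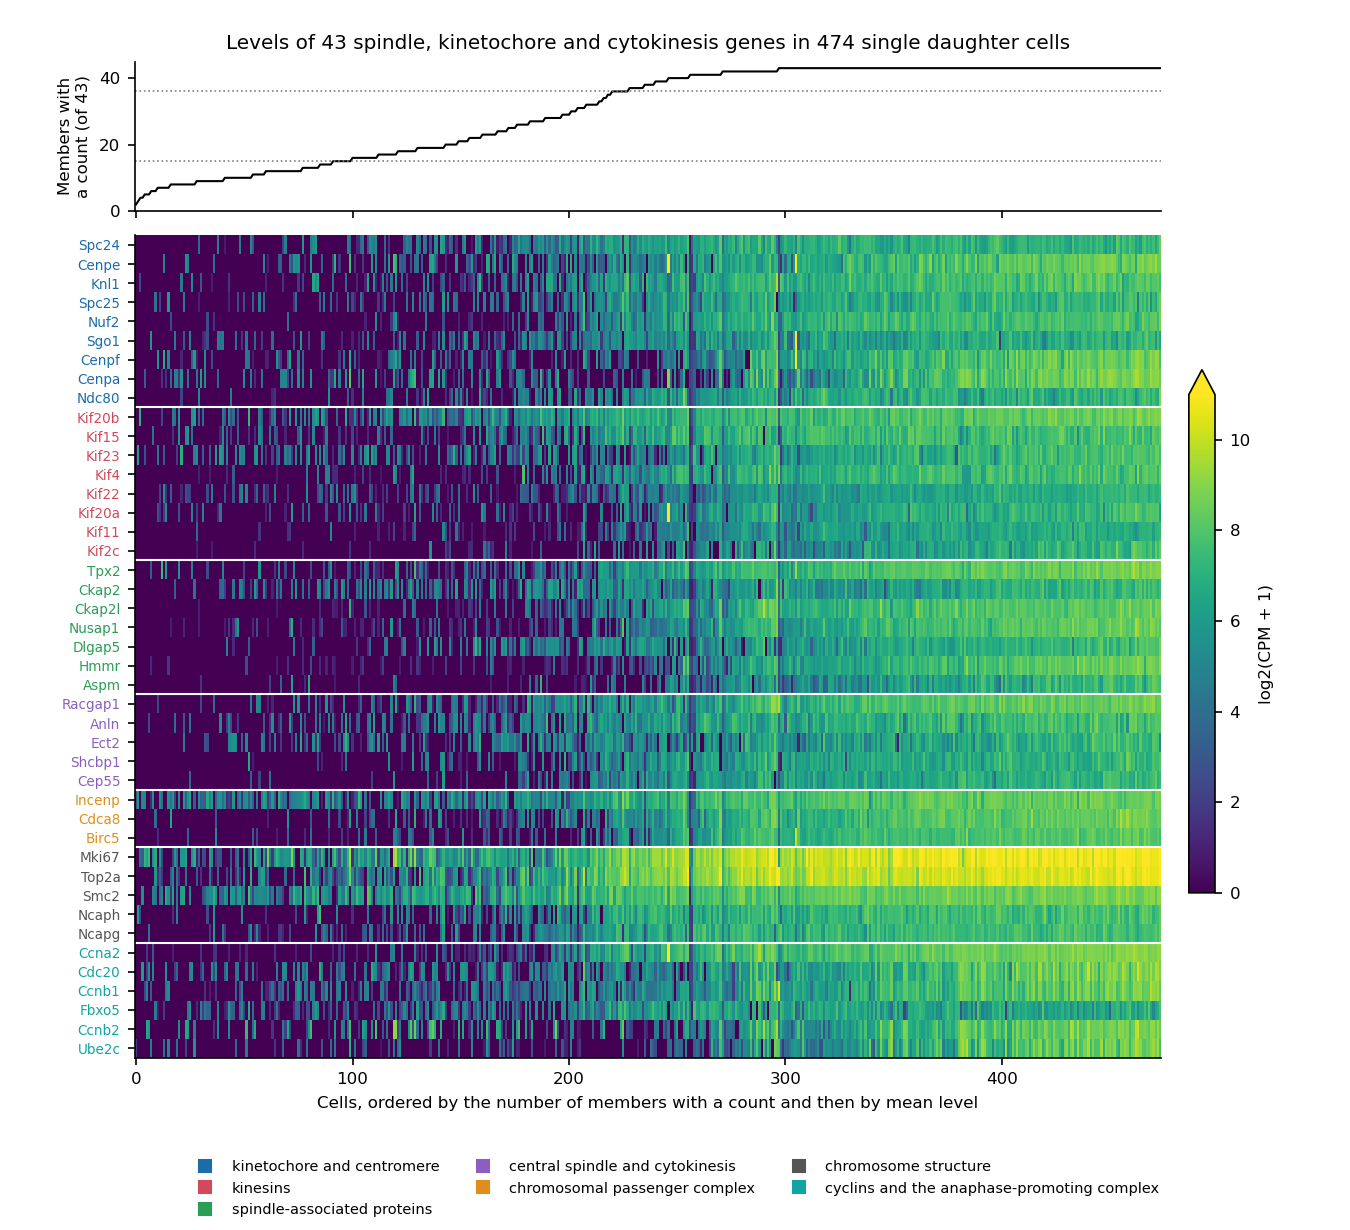
Heat map of log2(CPM + 1), for 43 members (rows, coloured and grouped by role) in all cells (columns), with the number of members counted in each cell above and dotted lines at 36 and 15. Values above 11 have the top colour. Mki67 and Top2a are the brightest rows, the 37.3% of cells on the right hold all 43 members, and Incenp, Mki67 and Smc2 still show counts in many cells on the left.

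By role, the chromosome structure genes were counted in the most cells (median over 5 genes, 86.9% of cells), and the kinesins in the fewest (median over 8 measured genes, 65.4%). Mki67, whose protein coats mitotic chromosomes, had a lowest, median and highest level of 0, 437.7 and 3855 CPM (a gene's share of the cell's counts on genes, times 1000000) and was counted in 93.7% of cells. Smc2, the shared ATPase of the condensins, had a median of 202.6 CPM and was counted in 93.04%. Top2a, which untangles sister DNA, had a median of 391.1 CPM and was counted in 86.9%. At the other end Kif2c, a kinesin that takes microtubules apart, was counted in 54.2% of cells with a median of 3.95 CPM, Aspm, a spindle pole protein, in 54.6% with 4.05 CPM, and Ube2c, the ubiquitin-conjugating enzyme of the anaphase-promoting complex, in 58.02% with 8.84 CPM. Levels were also divided by the annotated exonic length of each gene, such as 1.53 kb for Ccnb2, 1.87 for Cdc20 and 5.86 for Cenpa. That length need not be that of the transcripts present, so the order between genes is only rough. Median levels ran from 0.350 CPM per kb for Aspm to 43.5 for Mki67, with Top2a at 43.4 and Smc2 at 36.99. In the top 10% of cells the order was another: the 90th percentile was highest in Ccnb2 (251.9 CPM per kb), Cdc20 (214.2) and Mki67 (204.8).

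The 100 cells with 15 or fewer members did not lose the genes evenly. In these cells Incenp, the scaffold of the chromosomal passenger complex, was still counted in 78% of cells (median 14.8 CPM, against 274.5 CPM in the cells with at least 36 members). Mki67 was counted in 72% (15.4 against 1323 CPM) and Smc2 in 71% (22.2 against 324.3 CPM). Nuf2 and Cep55, which is needed for the final cut between daughters, were counted in 4% each, and Kif11, the motor that pushes spindle poles apart, in 5%. The highest level of Ccna2, the cyclin of DNA replication and early mitosis, in any of the 100 cells was 7.90 CPM, against a median of 300.1 CPM in the cells with at least 36 members. Since the count of members set these groups of cells, the levels are a description without a test.

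Sisters were alike in how much of the set they held. In 50.2% of divisions both daughters had at least 36 members, and in 14.3% (29 divisions) both had 15 or fewer. In 2.46% (5 divisions) a daughter with at least 36 members had a sister with 15 or fewer. With limits of 30 and 20 these shares were 53.7%, 24.1% and 4.93%, and with 40 and 10 they were 43.3%, 5.91% and 0.493%. In the remaining divisions a daughter, or both, lay between the limits, so these shares do not cover all divisions. The median difference between sisters was 2 members, and 63.1% of sister pairs were within 3 members of each other. Among 9944 pairs of unrelated daughters of the same experiment and plate the median difference was 12 and 29.6% were within 3. Sisters sat in adjacent wells in all but 2 divisions. Unrelated cells in adjacent wells, counting also cells without a sequenced sister, had a median difference of 12.5 members, and those in other wells 12 (12575 pairs). Being sisters and sitting side by side cannot be told apart in these divisions.

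**Figure D2:**
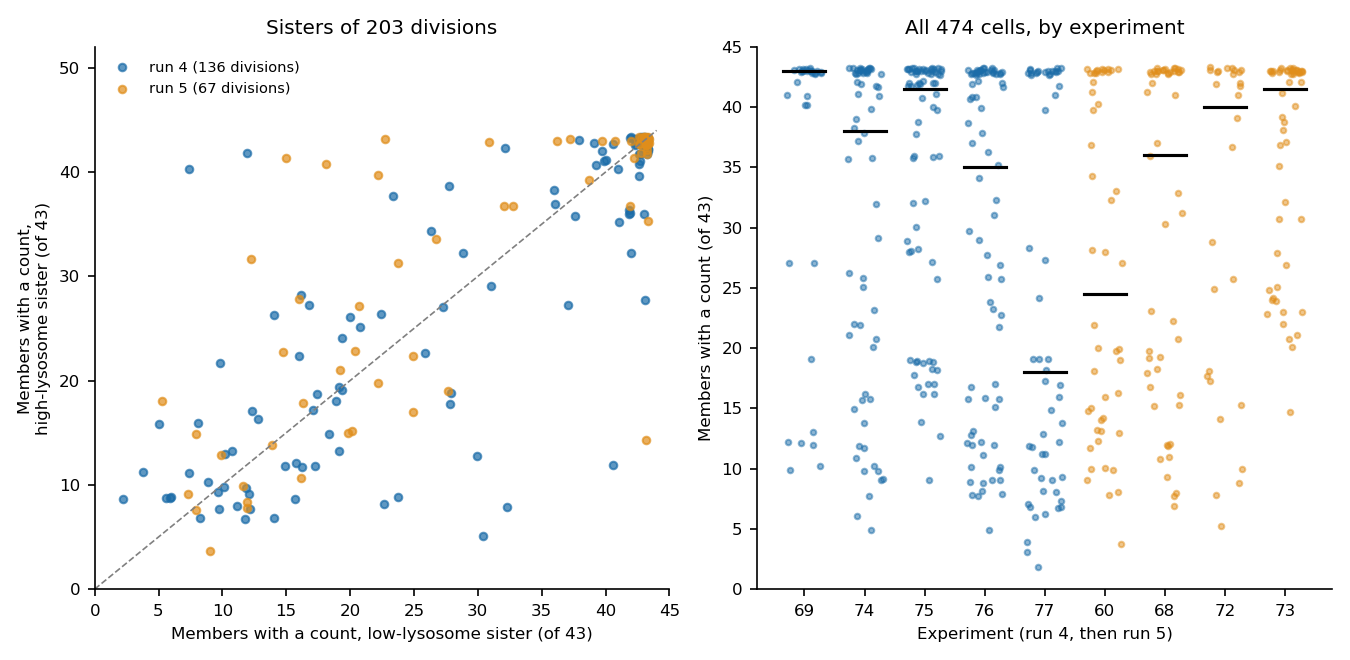
Left, number of members counted in the high-lysosome sister against the low-lysosome sister for each division, coloured by sequencing run; right, the same number for all cells by experiment, with a black line at each median. Points are shifted slightly at random so that they can be seen. Many divisions lie in the upper right corner, 5 lie near the other 2 corners, and the medians run from 18 in experiment 77 to 43 in experiment 69.

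The 5 divisions that split came from experiments 68, 69, 72 and 77, the last with 2. In experiment 72 the high daughter had 14 members and the low daughter 43, with Top2a at 26.9 and 1034 CPM, Ccnb1, the main mitotic cyclin, at 5.05 and 266.4 CPM, and Cdc20 at 0 and 290.9 CPM. In experiment 69 the high daughter had 12 and the low daughter 41, with Top2a at 0 and 1828 CPM and Ccnb1 at 0 and 198.4 CPM. In experiment 77 both splits were the other way: high daughters had 40 and 42 members and their sisters 7 and 12, and Top2a stood at 818.9 and 931.0 CPM against 2.11 and 13.04 CPM. Not every level split as far: Cdc20 stood at 33.7 and 31.7 CPM in the pair of experiment 77 with 42 and 12 members. In experiment 69 the high daughter kept Mki67 at 513.0 CPM, against 1315 CPM in its sister. These 4 pairs differed in Top2a level as well as in number. The pair of experiment 68 did not: the high daughter had 41 members and the low daughter 15, but Top2a was at 9.79 and 14.8 CPM and Mki67 at 47.7 and 14.8 CPM, low in both, with totals of 1634562 and 1216143 counts.

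For each gene the likeness of sisters was measured by the intraclass correlation, which is 1 when sisters do not differ and near 0 when they differ as much as unrelated cells, after centring on experiment and plate. An F test over divisions was adjusted over 11699 genes by the Benjamini-Hochberg method, and 26.4% of these genes passed (3084, adjusted p under 0.05). All 43 measured members passed. Their median was 0.734, against 0.0858 over all genes tested, and 5 of the 10 genes with the highest values, and 35 of the first 100, were members. Each of the 43 was positive in 9 of 9 experiments, with single-experiment values from 0.109 to 0.961. The p-values rest on divisions within 9 experiments, so they measure the spread between these divisions.

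Among kinetochore genes the median over 9 was 0.695. Nuf2 had the highest value of all members, 0.829 (95% interval 0.779 to 0.868, adjusted p = 4.53e-49), and it was counted in both sisters in 58.1% of divisions, in neither in 27.6% and in 1 sister in the other 14.3%. Its partners in the NDC80 complex, which grips the microtubule, were at 0.653 for Ndc80, 0.695 for Spc24 and 0.690 for Spc25, and Knl1, the platform for checkpoint kinases, at 0.738. Cenpa, the histone variant that marks centromeres, was at 0.731, Cenpf at 0.721, the kinetochore motor Cenpe at 0.679, and Sgo1, the guardian of centromeric cohesion, at 0.623. The interval of Nuf2 lay above those of its 3 partners (highest upper end, 0.761 for Spc24).

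The 8 measured kinesins had a median of 0.746. Kif2c was at 0.761, Kif4, a motor of chromosome arms and the central spindle, at 0.759, Kif11 at 0.754, and Kif15, which helps to keep spindle poles apart, at 0.749. Kif20a, which carries the passenger complex to the central spindle, was at 0.742 and its relative Kif20b at 0.724. Kif22, a motor on chromosome arms, was at 0.630 and Kif23, the motor of centralspindlin, at 0.572.

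The 7 spindle-associated genes had the highest median, 0.788. Hmmr, a spindle assembly protein, was at 0.799 (95% interval 0.742 to 0.844), Ckap2l at 0.794, Tpx2, an activator of the Aurora A kinase, at 0.793, Nusap1, which bundles microtubules, at 0.788, and Aspm at 0.753. Dlgap5, which steadies kinetochore fibres, was at 0.662 and Ckap2 at 0.601. Of the 5 measured central spindle and cytokinesis genes, Shcbp1 was at 0.781, Cep55 at 0.777, Racgap1, the GTPase-activating partner of Kif23, at 0.719, Anln, a scaffold of the contractile ring, at 0.667, and Ect2, which activates RhoA at the ring, at 0.604.

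In the chromosomal passenger complex, Birc5 was at 0.778, Cdca8 at 0.742 and Incenp at 0.625. Chromosome structure genes were closely grouped, with Top2a at 0.757, the condensin subunits Ncaph and Ncapg at 0.749 and 0.734, Mki67 at 0.744 and Smc2 at 0.714. The cyclins and regulators of the anaphase-promoting complex were the most spread. Ccna2 was at 0.828 (95% interval 0.779 to 0.867), Ube2c at 0.752, Ccnb2 at 0.727, Ccnb1 at 0.701 and Cdc20, the activator of that complex, at 0.591. Fbxo5, its inhibitor in interphase, had the lowest value of the members, 0.549 (95% interval 0.444 to 0.639, adjusted p = 8.71e-16). With the mean level of the DNA replication genes and its square regressed out of every gene, all 43 still passed, with a median of 0.637, from 0.317 for Fbxo5 to 0.776 for Nuf2. All 43 also passed within run 4 alone and within run 5 alone.

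**Figure D3:**
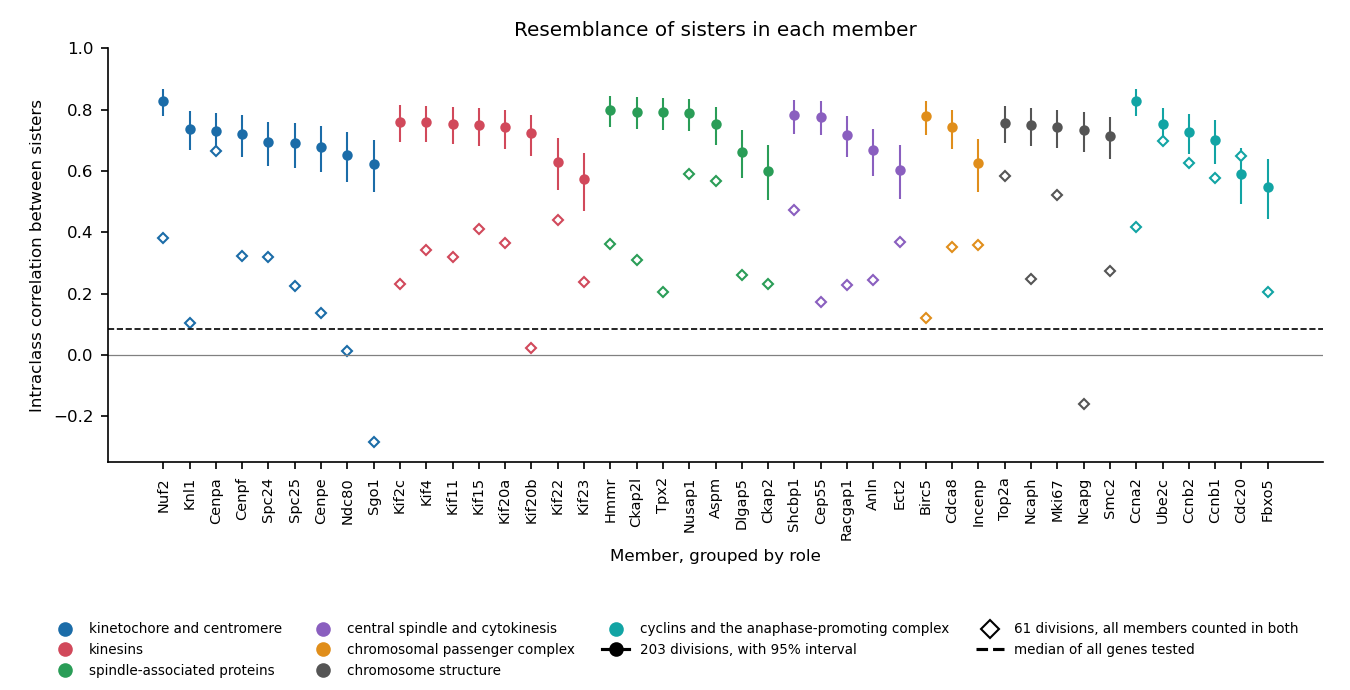
Intraclass correlation between sisters for each measured member, grouped and coloured by role. Filled points with bars are estimates over all divisions with 95% intervals, open diamonds are values over the 61 divisions in which both sisters had a count for all 43 members, and the dashed line is the median of all genes tested, 0.0858. Filled points lie between 0.549 and 0.829, and diamonds fall below them for every member but Cdc20.

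The sum of squares of each member was also split by source. Experiment and plate took between 3.14% (Incenp) and 8.93% (Ccnb2) of it. Division means took 72.4% (Cdc20) to 85.8% (Tpx2), and departures of sisters from them 8.44% (Nuf2) to 22.4% (Fbxo5). Each mean is taken over a pair of sisters, so the division share also holds part of the difference between sisters. These shares therefore overstate the part of divisions and are not the intraclass correlation. In 61 divisions both sisters had a count for all 43 members, and among these alone the median member was at 0.319. The order changed there: Ube2c was highest at 0.698, followed by Cenpa at 0.666, Cdc20 at 0.649 and Ccnb2 at 0.625, while Nuf2 was at 0.381, Ccna2 at 0.416 and Fbxo5 at 0.204. Ncapg and Sgo1 were below 0, at -0.16 and -0.28. As these divisions were picked by the members' own counts, the values carry no test.

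Genes of the same machinery outside the set were examined from lists, to be read beside the 26.4% that passed among all genes and their median of 0.0858. Of 24 inner kinetochore and Mis12 genes, 22 passed the sister test, led by Cenpi at 0.650 and Cenph at 0.640. Of 12 measured checkpoint genes 11 passed, led by Ska1 at 0.729 and Kntc1 at 0.677, and of 21 other spindle genes 17, led by Spag5 at 0.714, Kifc1 at 0.683 and Kif14 at 0.677. Condensin and cohesin genes passed in 10 of 17, with Espl1, the protease that opens cohesin rings, at 0.755 and Cdca5 at 0.715. Subunits and partners of the anaphase-promoting complex passed in 7 of 16 with a median of 0.150, led by Ube2s at 0.488, and other cytokinesis genes in 7 of 13 with a median of 0.211, led by Pimreg at 0.756 and Cit at 0.744. Many genes of these last groups were counted in nearly every cell (median 97.8% and 99.2% of cells). Of the regulators of the programme, 12 of 18 passed, led by Foxm1 at 0.709, Mybl2 at 0.604 and E2f8 at 0.597. All 22 measured DNA replication genes passed, with a median of 0.539, led by Rrm2 at 0.696.

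The members rose and fell together from cell to cell. Over all cells, centred on experiment and plate, the mean of 903 pairwise Pearson correlations was 0.743, from 0.382 for Smc2 with Ccnb2 to 0.925 for Nuf2 with Ccna2. Against the mean of the other members, single members ran from 0.712 (Ccnb2) to 0.952 (Ckap2l). All these points share library, depth and experiment, and the many cells near 0 for all members enter each of them. The mean level of the members had a correlation of 0.546 with the mean of 22 DNA replication genes, 0.425 with the number of detected genes and 0.0252 with the log of the total count. Per count on spike-ins, synthetic RNAs added to each well, the total went with it at 0.441 in the cells of run 4 and 0.248 in those of run 5. It went against the summed level of the HSC markers at -0.481 (8 markers, Hoxb5 at 0 in all cells, summed level 436.3 to 11012 CPM) and with that of 6 erythroid markers at 0.342 (summed level 0 to 930.7 CPM). With total counts and detected genes regressed out, all 43 members passed the sister test with a median of 0.605, and after thinning to 100000 counts all 43 passed with a median of 0.698. The part of RNA content and marker levels in the likeness of sisters was not tested.

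Differences between sisters ran together too. The high-minus-low difference of a member followed that of the other members with a correlation from 0.295 for Ckap2 to 0.783 for Ckap2l over divisions. Genes outside the set with the most similar pattern, by their correlation with the members' mean over all cells among 11745 genes, were Bub1 (0.937), Aurkb (0.933), Melk (0.917), Ttk (0.915), Ska1 (0.907), Espl1 (0.907), Bub1b (0.906), Pimreg (0.906), Spag5 (0.904) and Plk1 (0.899). Most opposed were Tcp11l2 (-0.54), Pdzk1ip1 (-0.51), Ahnak (-0.45), Hist1h2bc (-0.45), Apoe (-0.44), Gstm1 (-0.44), Pnpla7 (-0.44), Fut8 (-0.42), Laptm5 (-0.42) and Hlf (-0.41), the last an HSC transcription factor.

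Within the 37.3% of cells that had a count for every member, the members went together less closely. The mean pairwise correlation was 0.348, and 26 of 903 pairs were negative. These cells were picked by the members' own counts, which leaves out the cells near 0 for the set. How much of the fall from 0.743 over all cells comes from that choice was not tested. Cenpa with Ccnb2 (0.818), Cdc20 with Ccnb2 (0.807) and Cenpa with Cdc20 (0.795) were closest, and Ube2c with Fbxo5 (-0.34) and Fbxo5 with Ccnb1 (-0.30) were furthest apart. Over all cells every member was positively correlated with the mean of the DNA replication genes, from 0.0819 (Ccnb2) to 0.703 (Smc2). In the picked cells 38 of 43 members were negative, and the share over all genes was not computed. Ube2c was at -0.78, Cdc20 at -0.72, Cenpa at -0.71, Ccnb1 at -0.67, Ccnb2 at -0.66 and Cenpf at -0.63, while Nuf2 was at -0.08, Smc2 and Mki67 near 0, Kif15 at 0.226 and Fbxo5 at 0.417.

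Several of the genes most opposed to replication within these picked cells were also among the most variable there. Ube2c had a 10th percentile of 23.8 CPM and a 90th of 547.0 CPM, 22.9 times apart. The same ratio was 14.6 for Ccnb2 (37.2 to 541.7 CPM), 13.1 for Cenpa (39.3 to 516.1 CPM), 11.6 for Aspm (20.4 to 237.2 CPM) and 10.9 for Cdc20 (54.9 to 597.5 CPM). Ccnb1 and Cenpf had lower ratios, 7.71 and 7.17. Both lay below Ect2 at 7.93, whose correlation with replication was only -0.37. Smc2, from 245.3 to 532.8 CPM, and Top2a, from 705.1 to 1761 CPM, spanned ratios of 2.17 and 2.50, and the median over members was 4.02. The 5 genes most opposed to replication in the picked cells had sister values between 0.576 (Ccnb1) and 0.698 (Ube2c) in the 61 divisions named above. The replication mean itself was at 0.541 there.

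**Figure D4:**
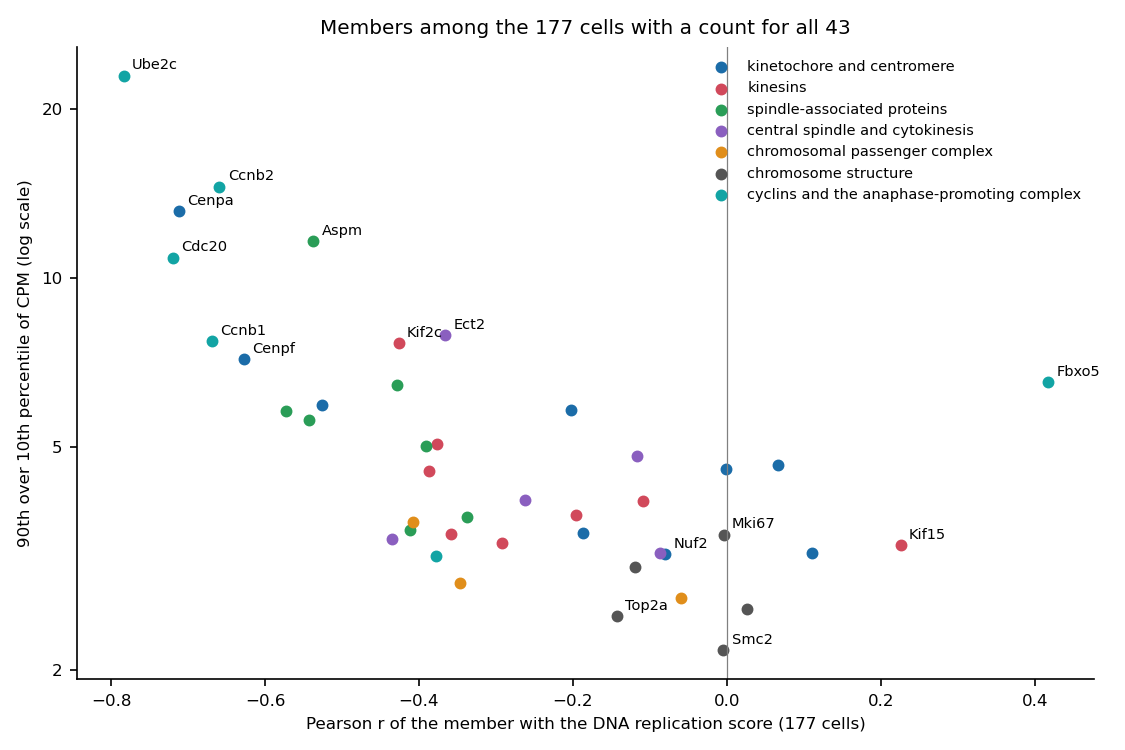
For each of 43 members, Pearson r with the mean level of 22 DNA replication genes (x axis) against the 90th over the 10th percentile of its CPM (y axis, log scale), over the cells with a count for all 43. Ube2c, Ccnb2, Cenpa and Cdc20 lie at the upper left with ratios above 10, and Fbxo5 stands alone at the right with an r of 0.417.

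Lysosome inheritance moved none of the members past the test. Counts of the high and the low daughters of each division were summed per experiment and label, and high was compared with low within 9 experiments by edgeR's quasi-likelihood test. Of 15854 genes 0 passed at an adjusted p under 0.05 (0%), and 658 (4.15%) had an unadjusted p under 0.05. Among the 43 members 0 passed and 1 had an unadjusted p under 0.05. DESeq2 called 5 genes, none of them a member, and limma on divisions called 0, with 676 of 11699 genes (5.78%) and 2 members at an unadjusted p under 0.05. The number of members per cell was close as well: high daughters had a mean of 31.04 and low daughters 30.6, more in the high daughter in 70 divisions, in the low daughter in 64 and equal in 69.

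Fbxo5 was the member with the smallest p. Its level in sums of high daughters ran from 53.6 to 97.6 CPM with a median of 65.3, and in sums of low daughters from 35.3 to 79.5 CPM with a median of 53.7. The ranges overlapped, and high was above low in 8 of 9 experiments, by 0.73 on the log2 scale in experiment 77 and by -0.02 in experiment 74. The edgeR log2 difference was 0.36 ± 0.09 (SE, n = 9 experiments), with an unadjusted p of 0.00112 and an adjusted p of 0.999 (0.0796 with DESeq2, the lowest of the alternatives tried, and up to 1). Fbxo5 was higher in the high daughter in 56.7% of divisions, higher in the low daughter in 35.5% and equal in 7.88%.

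The next 7 members by p showed smaller log2 differences. Spc25 was at 76.6 ± 14.9 CPM in high and 70.9 ± 25.5 in low daughters (SD, n = 9), a difference of 0.17 ± 0.10. Ckap2, Kif20b and Anln were also above 0, at 0.08, 0.06 and 0.10, with standard errors of 0.08, 0.06 and 0.11. Ncaph at -0.10, Ccna2 at -0.13 and Ckap2l at -0.11 were below 0, with Ccna2 at 167.1 ± 46.1 CPM in high and 185.9 ± 66.9 in low daughters. Each of these 7 had an adjusted p of 0.999 by edgeR. Over all 43 members the differences ran from -0.13 to 0.36 with a median of 0.02, beside -0.000758 over all genes, and 27 were above 0. For every member, an approximate 95% interval lay within a 2-fold change, with 0.53 on the log2 scale as its furthest end. The SEs of edgeR differences, here and between runs, were back-calculated from the F statistic. The interval used a normal quantile without the degrees of freedom of the test, so it may be too narrow.

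**Figure D5:**
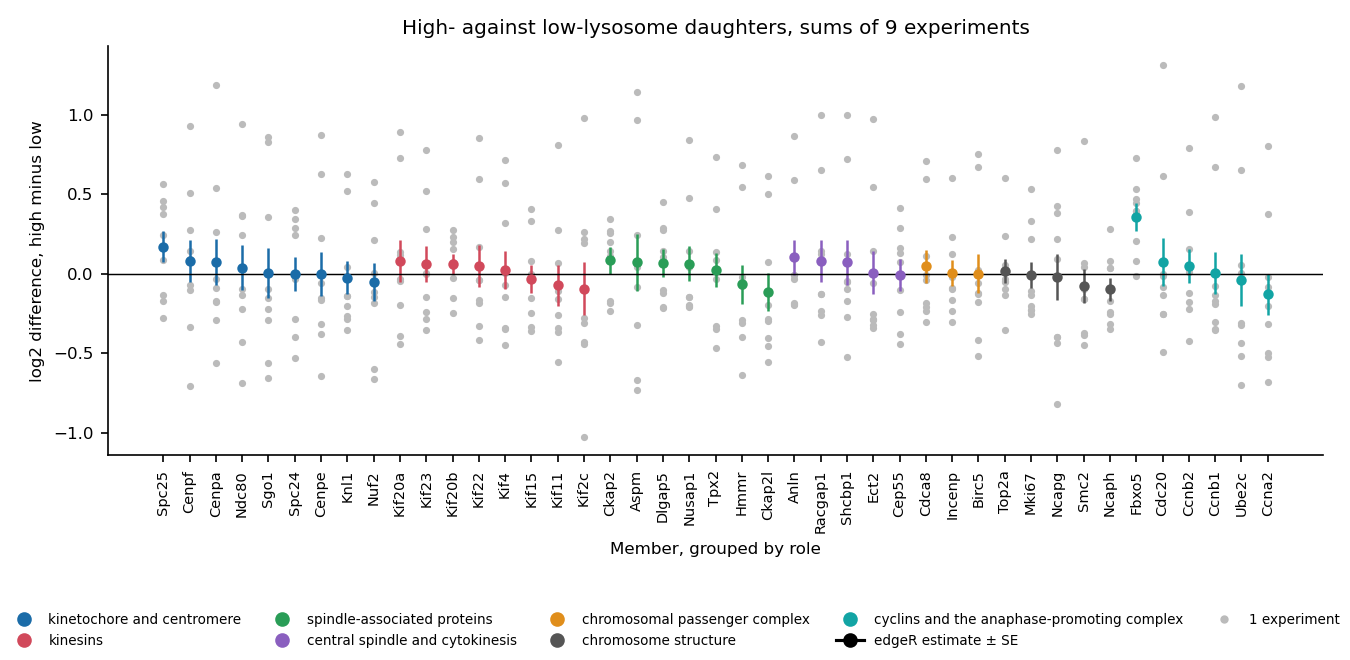
Log2 difference between high- and low-lysosome daughters for each measured member, grouped and coloured by role. Coloured points with bars are edgeR estimates ± SE, and grey points are the differences in the 9 single experiments. Estimates lie between -0.13 and 0.36, and grey points of most members fall on both sides of 0.

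The members' balance changed with the model and when single experiments were left out. With the division as replicate block, limma was fitted to the high-minus-low difference of each division in place of summed counts. The measure thus changed along with the block. By this fit 34 of 43 members were above 0 and the median was 0.11, beside 0.03 over all genes. With limma voom 21 were above 0 (median -0.00138) and with no replicate block 20 (-0.00841). Without experiment 68, 7 of 43 members were above 0 and the median was -0.06, and without experiment 77, 14 were above 0 and the median was -0.04. In the other lists 0 genes passed. Above 0 were 10 of 12 checkpoint genes (median 0.08), 16 of 22 DNA replication genes (0.04), 10 of 18 regulators (0.04), 9 of 17 condensin and cohesin genes (0.01) and 9 of 16 genes of the anaphase-promoting complex (0.01). Inner kinetochore genes were above 0 in 12 of 24 (median -0.000289), other spindle genes in 10 of 21 (-0.01) and other cytokinesis genes in 6 of 13 (-0.02). The label difference was also compared between runs, and 0 of 43 members had an unadjusted p under 0.05 for it in edgeR (smallest 0.0881, Tpx2, 0.19 in run 4 and -0.18 in run 5).

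Experiments differed in how many of their cells held the set. The share of cells with at least 36 members ran from 37.5% in experiment 60 and 38.2% in experiment 77 to 71.9% in experiment 69, and the share with 15 or fewer from 1.92% in experiment 73 to 43.6% in experiment 77. Median totals were also lowest in experiments 77 and 60, at 539043 and 580670 counts, and after thinning the share with at least 36 ran from 33.3% in experiment 60 to 71.9% in experiment 69. For cells with 15 or fewer members thinning moved the share more: experiment 69 then had the smallest (18.8%) and experiment 77 the largest (56.4%), while experiment 73 stood at 29.4% in place of 1.92%. A limma F test on division means found 3803 of 11699 genes (32.5%) to differ between experiments, and 3 of 43 members. The members' median F was 1.75, against 1.80 over all genes. Within run 4 alone 0 members passed, beside 13% of all genes, and 20 had an unadjusted p under 0.05, beside 28.1%. Within run 5 alone 2 passed, beside 11%, and 10 had such a p, beside 26.6%. With the log of the total count as covariate 1 member passed, and across all alternatives tried 1289 to 4028 of all genes passed. Experiments 60, 68, 72, 73 and 77 each had a plate to themselves, so experiment and plate cannot be told apart there. Experiment 69 was spread over plates 1, 2 and 3 of run 4, which also held experiments 74, 75 and 76. Plate was not in the model, and its part was not tested. Between runs, experiment cannot be told apart from sequencing run.

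Ccnb2 (F 2.82, adjusted p 0.0219 by limma), Mki67 (F 2.64, 0.0318) and Cdc20 (F 2.55, 0.0380) passed. Mean log2(CPM + 1) of Ccnb2, a mitotic cyclin, was lowest in experiment 60 at 2.44 ± 2.66 (SD, n = 20 divisions), with a median experiment at 3.93, and highest in experiment 69 at 6.04 ± 3.29 (n = 12). Cdc20 was also lowest in experiment 60, at 2.74 ± 2.67, and highest in experiment 69, at 6.46 ± 2.62. Mki67 was lowest in experiment 77, at 6.42 ± 3.92 (n = 26), and highest in experiment 73, at 9.18 ± 1.62 (n = 19). The SDs over divisions were wide next to the differences between experiments, and divisions of all experiments overlapped. Calls rested on single experiments. By limma, Ccnb2 missed the threshold without experiments 60 or 75 (adjusted p 0.1505 and 0.104), Cdc20 without 60, 69 or 73 (0.484, 0.0881 and 0.0642), and Mki67 without 73, 75 or 77 (0.0849, 0.200 and 0.0954). The next members by F were Cenpf (2.37), Ccnb1 (2.35), Birc5 (2.21), Knl1 (2.20) and Ube2c (2.20), which did not pass, and 4 of these 5 were lowest in experiment 60 and highest in experiment 69, the exception being Knl1.

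Between sequencing runs, 0 of 14788 genes passed edgeR's test on the 9 experiment sums, while 1351 (9.14%) had an unadjusted p under 0.05, and of the 43 members 0 passed and 1 had such a p. DESeq2 called 89 genes, 46 higher and 43 lower in run 5, none of them a member. Kif11 had the smallest p. In run 4 its 5 experiments stood at 30.1, 31.7, 32.3, 43.2 and 52.6 CPM, and in run 5 the 4 experiments at 40.1, 46.8, 65.96 and 72.6 CPM. The groups overlapped, and the log2 difference, run 5 minus run 4, was 0.57 ± 0.22 (SE) with an unadjusted p of 0.0227 and an adjusted p of 0.543 by edgeR. Kif4 and Kif15 were at 0.26 and 0.25, Cenpe at 0.29, Incenp at 0.22, Spc25 at -0.30, Shcbp1 at -0.29 and Ccnb2 at -0.57 ± 0.39. Over all 43 members the median difference was -0.03, with 19 above 0, beside a median of 0.00546 over all genes, of which 50.6% were above 0. Single experiments set that balance: without experiment 60, 35 members were above 0 with a median of 0.11, and without experiment 73, 13 were above 0 with a median of -0.21. The median was also above 0 without experiment 69 or 75, at 0.04 and 0.05.

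Some members share exon sequence with a gene on the opposite strand, and whether counting used strand is not given in the sources used here. The overlap covers 29.3% of the exonic bases of Kif20a (with Cdc23), 22.8% of Ube2c (with Tnnc2), 15.1% of Kif4 (with Pdzd11), 13.4% of Ncapg (with Lcorl) and 12.5% of Ccna2 (with Exosc9). Reads from these stretches cannot be told apart by gene if strand was ignored, so the levels of these 5 members are less certain than the rest.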

How the data were processed

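Smart-seq2 libraries of 474 cells, 406 of them from 203 divisions with 1 high and 1 low daughter, were counted by the authors, and the deposited tables hold raw read counts per gene. The submitters' processing notes name featureCounts of Subread 1.5.0 and SAMtools, with aligner and genome build not given in the sources used here. The deposited metadata tables hold the authors' labels for each cell (unit: other), by which sisters were joined. Gene identifiers equal those of GENCODE M21, from which symbols and positions (GRCm38) were taken. A further 171 count columns belong to no listed sample and were not used. Cells needed 50000 counts and 1000 detected genes. No libraries held identical counts. Reads carry no molecular identifiers, so they are not independent molecules.

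CPM is the share of a cell's counts on genes, times 1000000, and log2 values use CPM plus 1. Co-variation was described over all 474 cells and over the 177 with a count for all measured members, and 194 unrelated pairs lay in adjacent wells. Sister resemblance and experiments were tested on genes counted in at least 20% of cells of divisions. Summed counts were tested with edgeR 4.0.16 (TMM, filterByExpr), with limma 3.58.1 and DESeq2 1.42.0 as alternatives, in R 4.3.3, at an adjusted p of 0.05. Python 3.11.15, numpy 2.4.6, pandas 2.3.3 and scipy 1.17.1 did the rest. The code was tested on simulated data. All members are accounted for, and the 8 with the smallest p (label, run) or largest F (experiments) are named with values. Members, roles and lists were chosen with earlier results of these data known.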

Additional observations from a re-analysis of the deposited data

How the results depend on the processing

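Sister resemblance kept all 43 measured members past the threshold under every alternative tried (other pseudocounts and detection filters, centring, depth or replication regressed out, thinning, single runs, and each experiment left out), while the count over all genes ran from 2647 to 3154 without single experiments and was 1201 in run 5 alone. The label test called 0 genes under every alternative but DESeq2, with 5, and 0 members in all. With the division as replicate block (limma, on differences within divisions in place of summed counts), 0 genes passed. Ncaph, Ccna2 and Ckap2l turned to 0.19, 0.17 and 0.0433 there, while Kif20b turned to -0.0146 in run 4 alone. The cause was not tested. With no replicate block, 0 genes and 0 members passed. For experiments, 6 members passed with a pseudocount of 0.1, 1 with 10, 1 with the total count as covariate and 0 in run 4 alone. The main setting had 3 of 43 members, beside 32.5% of all genes. Across all alternatives the count over all genes ran from 1289 to 4028, so member counts are to be read beside a high background. Over all genes 1518 passed in run 4 alone and 1289 in run 5 alone, with fewer divisions in each. Without single experiments the genes ran from 2173 to 4028 and the members from 1 to 7. For runs, DESeq2 called 89 genes and the omission of single experiments gave 0 to 1. After thinning, chosen after seeing the data, 53 divisions had both sisters at 15 or fewer members, in place of 29. The number of cells and divisions with few members therefore moves with depth, and single-cell zeros of members are limited by it.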
